A study of Mus musculus with 21 samples.

Results

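S100 genes encode small calcium-binding proteins, and 9 of them were followed across all libraries: S100a1, S100a3, S100a4, S100a6, S100a8, S100a9, S100a10, S100a11 and S100a13. They were taken by gene symbol from deposited tables of 50645 and 50644 genes. The cells were macrophages grown from the bone marrow of C57Bl6/J mice, labelled as 24 weeks old, in medium with 30% supernatant of L929 cells, which secrete the macrophage growth factor CSF1. Donors had eaten standard chow or a Western diet, one high in fat, sugar and cholesterol, for 24 weeks. The fatty acid table holds 12 libraries, all from chow donors: 3 untreated, 3 given lipopolysaccharide (LPS, a bacterial ligand of the receptor TLR4), 3 given fatty acid before LPS, and 3 given fatty acid and TAK242 before LPS. LPS from E. coli was given at 100 ng/ml for 24 h once the cultures had reached day 7. The fatty acid was palmitic and oleic acid at 1 part to 3, at 10 mM in the first 4 days, and was then washed off; TAK242, an inhibitor of TLR4 signalling, was at 200 nM in the same days. The Western diet table holds 9 libraries: 3 untreated from chow donors (replicates 4 to 6), 3 labelled Western diet untreated and 3 labelled Western diet with LPS. The design as described here has no group with fatty acid but without LPS. It also has none with TAK242 but without fatty acid, or with TAK242 but without LPS. Whether TAK242 acted on the fatty acid step or on the later LPS response thus cannot be told apart. The labels do not say whether replicates are animals or dishes, so a p-value measures the spread between these libraries, which may be technical.

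S100 proteins bind calcium through paired EF-hand loops, mostly as dimers, and then open a surface that grips other proteins. Inside cells they bind annexins, myosin and other cytoskeletal partners. Outside cells, S100A8 and S100A9 together form calprotectin, an alarmin abundant in neutrophils and monocytes that withholds metal ions from microbes and signals through TLR4 and the receptor RAGE. All 9 genes lie on mouse chromosome 3 (build GRCm38), with coordinates equal to GENCODE M21. Of these, 7 lie within 184.7 kb, at chr3:90511034-90695721, a stretch that also holds other genes, S100a2 and Gm42674 among them. S100a11 and S100a10 lie 2.82 Mb away, within chr3:93520488-93564643.

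The upstream stretches of the 4 members on which the results turn are printed 5′ to 3′ on the strand of the gene, with letters matching a searched motif in capitals. They come from RefSeq's GRCm38.p6 table, which held 8 of the 9 members and 11 start windows. S100a4 and S100a6, next to each other among the members and falling together, are at chr3:90603520-90603769 and chr3:90612644-90612881 on the plus strand. S100a8, plus strand, is shown at chr3:90668821-90668977, which ends at the base before the GENCODE gene start; the RefSeq start lies inside that gene. S100a9, minus strand, is at chr3:90695722-90695971.
S100a4: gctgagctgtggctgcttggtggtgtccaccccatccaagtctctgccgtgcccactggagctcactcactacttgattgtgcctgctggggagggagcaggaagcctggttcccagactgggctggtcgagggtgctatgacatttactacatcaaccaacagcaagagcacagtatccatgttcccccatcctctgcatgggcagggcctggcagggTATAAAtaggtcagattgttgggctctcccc
S100a6: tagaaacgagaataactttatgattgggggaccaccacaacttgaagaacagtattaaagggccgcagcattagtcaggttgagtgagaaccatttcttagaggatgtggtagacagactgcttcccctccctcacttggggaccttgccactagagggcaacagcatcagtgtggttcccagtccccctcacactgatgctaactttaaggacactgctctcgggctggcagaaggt
S100a8: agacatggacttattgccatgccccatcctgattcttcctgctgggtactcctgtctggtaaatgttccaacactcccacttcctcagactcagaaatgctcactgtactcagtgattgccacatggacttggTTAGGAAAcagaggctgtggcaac
S100a9: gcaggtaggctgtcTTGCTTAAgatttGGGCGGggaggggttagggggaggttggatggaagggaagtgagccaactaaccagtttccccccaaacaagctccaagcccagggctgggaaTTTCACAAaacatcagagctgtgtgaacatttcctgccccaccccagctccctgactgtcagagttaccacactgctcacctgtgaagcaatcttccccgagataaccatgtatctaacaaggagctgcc

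Motifs were sought on both strands in the 250 bases before each RefSeq start, and each share is that of all 32851 such windows in the table. The TATA box, sought as TATAAA and found in 12.4% of windows, began 31 bases before the start of S100a4 and 30 before that of S100a8, the latter outside the printed stretch. TTNNGNAA (C/EBP family, 36.8%) matched once in S100a8, as TTAGGAAA, and at a pair of places in S100a9, as TTGCTTAA and TTTCACAA. GGGCGG (SP1, 32.7%) matched in S100a9 and at 3 places in S100a11. TGANTCA (AP-1, 6.75%) matched in S100a11, as TGAGTCA at 136 and 38 bases before the start. The NF-kappaB consensus (1.41%) and TTCNNNGAA (STAT, 7.02%) matched in none of the 11 windows, and S100a1, S100a6 and S100a13 held none of the 6 motifs. The windows of S100a3 held matches of the C/EBP, TATA and SP1 motifs. S100a1 and S100a13 run in opposite directions from a shared gap of 42 bases, chr3:90514393-90514434, shown on the plus strand because it is the whole space between this pair.
S100a1 and S100a13 gap: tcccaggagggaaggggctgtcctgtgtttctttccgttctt

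Deposited values summed to between 321532 and 386023 per library, with 8803 to 10145 genes at 1 or more. The files name no unit, so the depth behind a value is unknown, and a ratio of values of different genes is read only for how it differs between libraries. The cells carried macrophage markers: 8 of 9 listed markers reached 1 in each of the 21 libraries, and their summed value ran from 2392 to 4144 over both tables. Lymphocyte markers summed to at most 0.11. In the Western diet table, LPS-responsive genes went against the label in 4 libraries, described with that table.

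S100a4, S100a6, S100a10, S100a1 and S100a13 fell with LPS, while S100a8 and, by a small amount, S100a11 rose. Of the 8 members that passed a filter (a value of at least 1 in at least 3 libraries), 7 passed the limma test at an adjusted p under 0.05, against 61.7% of all 10476 genes tested. In the falling direction it was 5 members beside 47.9% of genes, and in the rising direction 2 beside 13.8%. Their median log2 change was -0.99 and that of all genes -0.31. Scaling the libraries by median ratios moved the all-gene median by 0.34 and turned 1444 higher and 5019 lower genes into 2977 and 2705; 2 members then rose and 4 fell.

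S100a4 binds non-muscle myosin and is tied to cell motility. Its deposited value was 832.7, 772.8 and 678.5 in untreated replicates 1 to 3, and 117.7, 114.1 and 100.4 with LPS. Every LPS library was far below every untreated one. The mean went from 761.4 ± 77.8 to 110.7 ± 9.10 (SD, n = 3), 6.88-fold lower, a log2 change of -2.77 (SE 0.146, limma adjusted p = 4.78e-08).

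S100a6 (calcyclin), a partner of annexins and of the ubiquitin ligase adaptor CACYBP, was at 227.6, 199.7 and 214.0 untreated and at 76.0, 87.9 and 83.6 with LPS. The groups stood apart, with a log2 change of -1.36 (SE 0.203, limma adjusted p = 1.55e-04). S100a10 (p11) encodes a light chain that forms a complex with annexin A2 and has lost calcium binding. S100a10 was at 152.0, 142.4 and 138.4 untreated and at 48.7, 48.6 and 57.9 with LPS. It was 2.79-fold lower (log2 change -1.46, SE 0.0880, limma adjusted p = 1.37e-07).

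S100a1, best known from heart muscle, where it tunes calcium pumps and channels, was at 125.6, 106.5 and 122.0 untreated and at 38.4, 33.2 and 33.1 with LPS. It fell by 1.73 on the log2 scale (SE 0.0978, limma adjusted p = 8.27e-08). S100a13, whose protein helps export FGF1 from cells, shares the 42-base gap printed above with S100a1 and moved less: 56.4, 44.5 and 48.6 untreated against 31.6, 33.6 and 30.5 with LPS. Its log2 change of -0.62 (limma adjusted p = 1.67e-04) became -0.22 (adjusted p = 0.117) after median-ratio scaling. The difference between this pair of genes was not tested.

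S100a11 (calgizzarin), a partner of annexin A1, was at 102.3, 102.9 and 92.4 untreated and at 134.9, 115.2 and 104.8 with LPS. The groups did not overlap, but the lowest LPS library was just above the highest untreated one. The log2 change of 0.25 (SE 0.0973, limma adjusted p = 0.0472) sat at the threshold. It missed the threshold without LPS replicate 1 (0.15, adjusted p = 0.148), LPS replicate 2 (0.26, 0.077), or untreated replicate 1 (0.27, 0.0619), 2 (0.27, 0.0651) or 3 (0.20, 0.156), and with no filter (adjusted p = 0.0667) or only the 6 libraries (0.118).

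**Figure D1:**
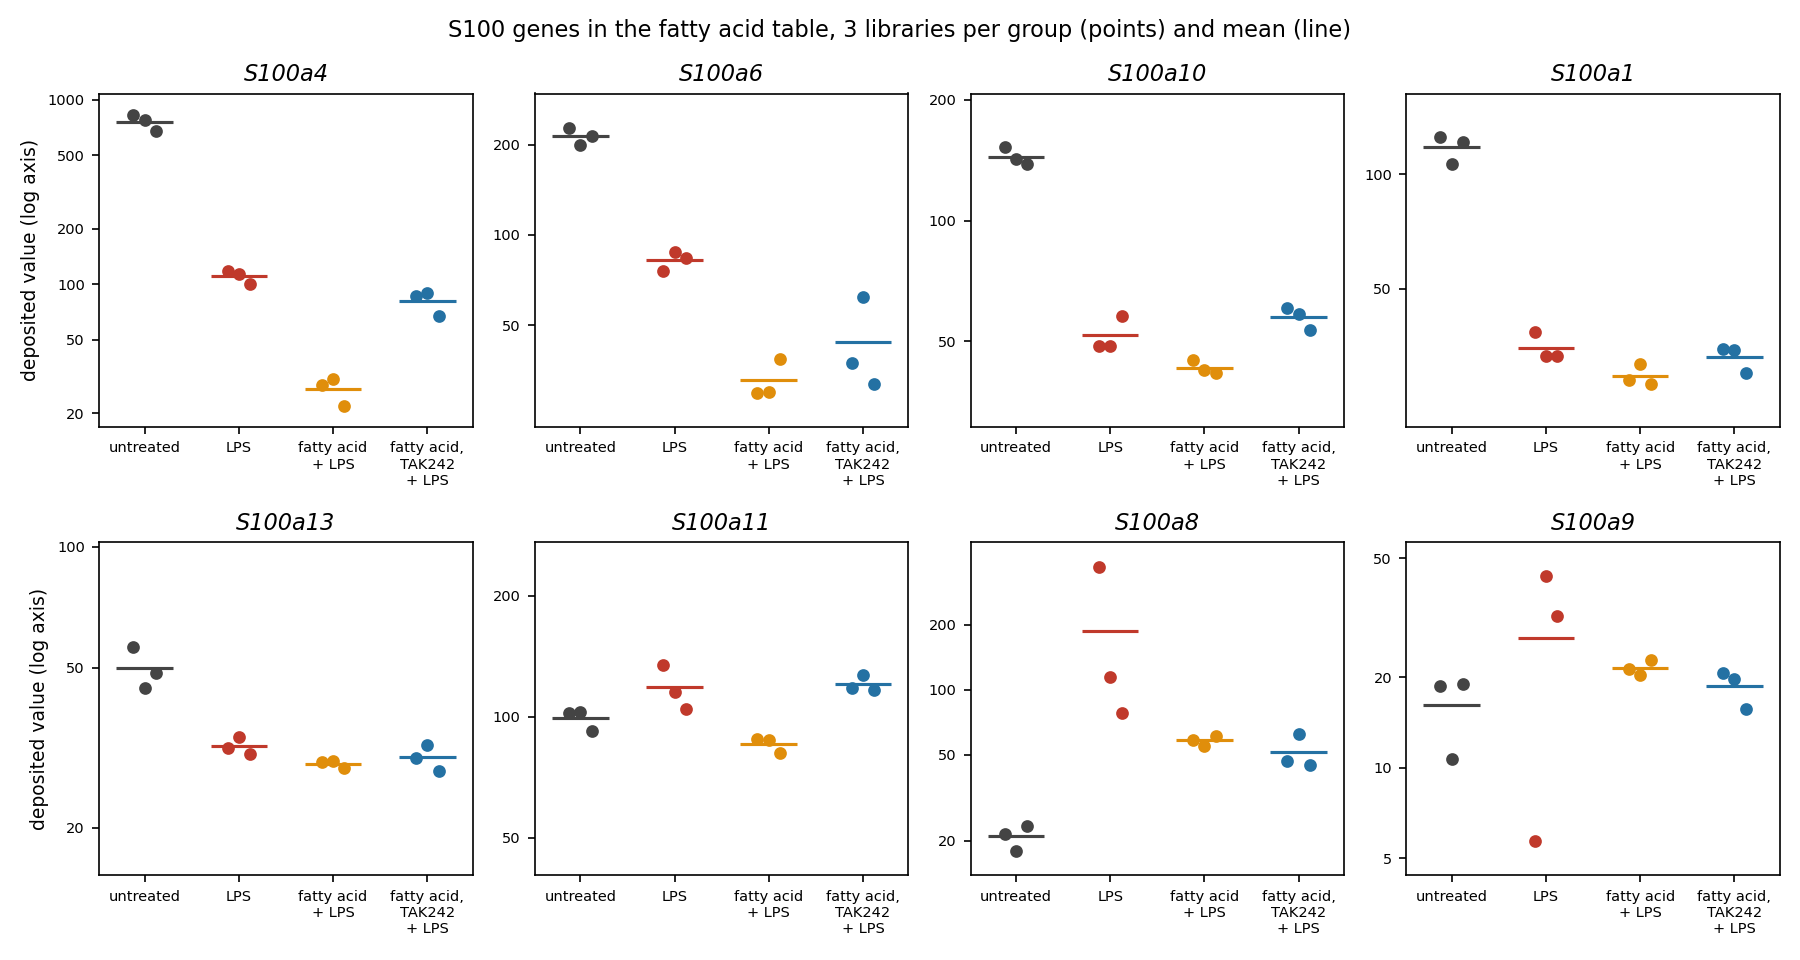
Deposited values (log axis, a scale of its own in each panel) of the 8 members that passed the filter, in the 12 libraries of the fatty acid table; points are libraries and lines are group means. S100a4 falls from 678.5 or more to 117.7 or less with LPS and to 30.5 or less with fatty acid before LPS, while S100a8 and S100a9 part ways in LPS replicate 1, at 371.9 and 5.69.

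S100a8 was at 21.6, 18.0 and 23.5 untreated and at 371.9, 114.5 and 78.1 with LPS. All LPS libraries were above all untreated ones, but they differed widely among themselves. The log2 change was 2.78 (SE 0.431, limma adjusted p = 2.07e-04), a ratio of means of 8.96, and it was 2.13 without LPS replicate 1. S100a9, whose protein pairs with that of S100a8, was at 18.7, 10.7 and 19.1 untreated and at 5.69, 43.5 and 32.0 with LPS. LPS replicate 1 held the highest S100a8 and the lowest S100a9 of the 12 libraries, so the S100a9 groups overlapped. The log2 change of S100a9 was 0.36 (SE 0.550, limma adjusted p = 0.588); it was 1.20 (adjusted p = 0.0012) without LPS replicate 1 and -0.16 (adjusted p = 0.81) without LPS replicate 2.

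Of 4 granule genes of maturing neutrophils, Ngp and Ltf were lowest in LPS replicate 1, as S100a9 was, while Mmp8 and Camp were highest there, as S100a8 was. Ngp, which encodes neutrophilic granule protein, was at 3.23, 2.52 and 4.00 untreated and at 0.698, 6.26 and 4.24 with LPS. Ltf (lactoferrin) was at 3.86, 2.61 and 4.50 untreated and at 0.467, 3.21 and 2.83 with LPS. LPS replicate 1 was the lowest of the 12 libraries for both, as for S100a9. Mmp8, a collagenase gene on the same list, was at 65.6, 64.1 and 57.7 untreated and at 139.1, 55.3 and 41.7 with LPS. Camp, which encodes the antimicrobial peptide cathelicidin, was at 0.854, 0.675 and 0.554 untreated and at 5.09, 3.80 and 2.65 with LPS. The neutrophil list of 12 markers had 4 at 1 or more in each untreated library, and 3, 5 and 5 in LPS replicates 1 to 3. It had 2, 1 and 1 at 0 in untreated replicates 1 to 3, and 7, 3 and 2 in LPS replicates 1 to 3. Its summed value ran from 77.1 to 82.6 untreated, 76.8 to 158.3 with LPS, 70.1 to 77.1 with fatty acid and 70.9 to 81.3 with TAK242. Ly6g, a defining neutrophil marker, and Retnlg were at 0 in all 3 LPS libraries; Mpo was at most 0.0102, Elane at most 0.0404 and Cxcr2 at most 0.0113 there. Stromal markers (8 listed) summed to 7.86 to 15.9 untreated and to 55.0, 30.5 and 24.9 with LPS, again highest in LPS replicate 1. The part of these cells in the S100a8 and S100a9 values was not tested; in bulk RNA, fewer cells of a type and less RNA per cell cannot be told apart.

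**Figure D2:**
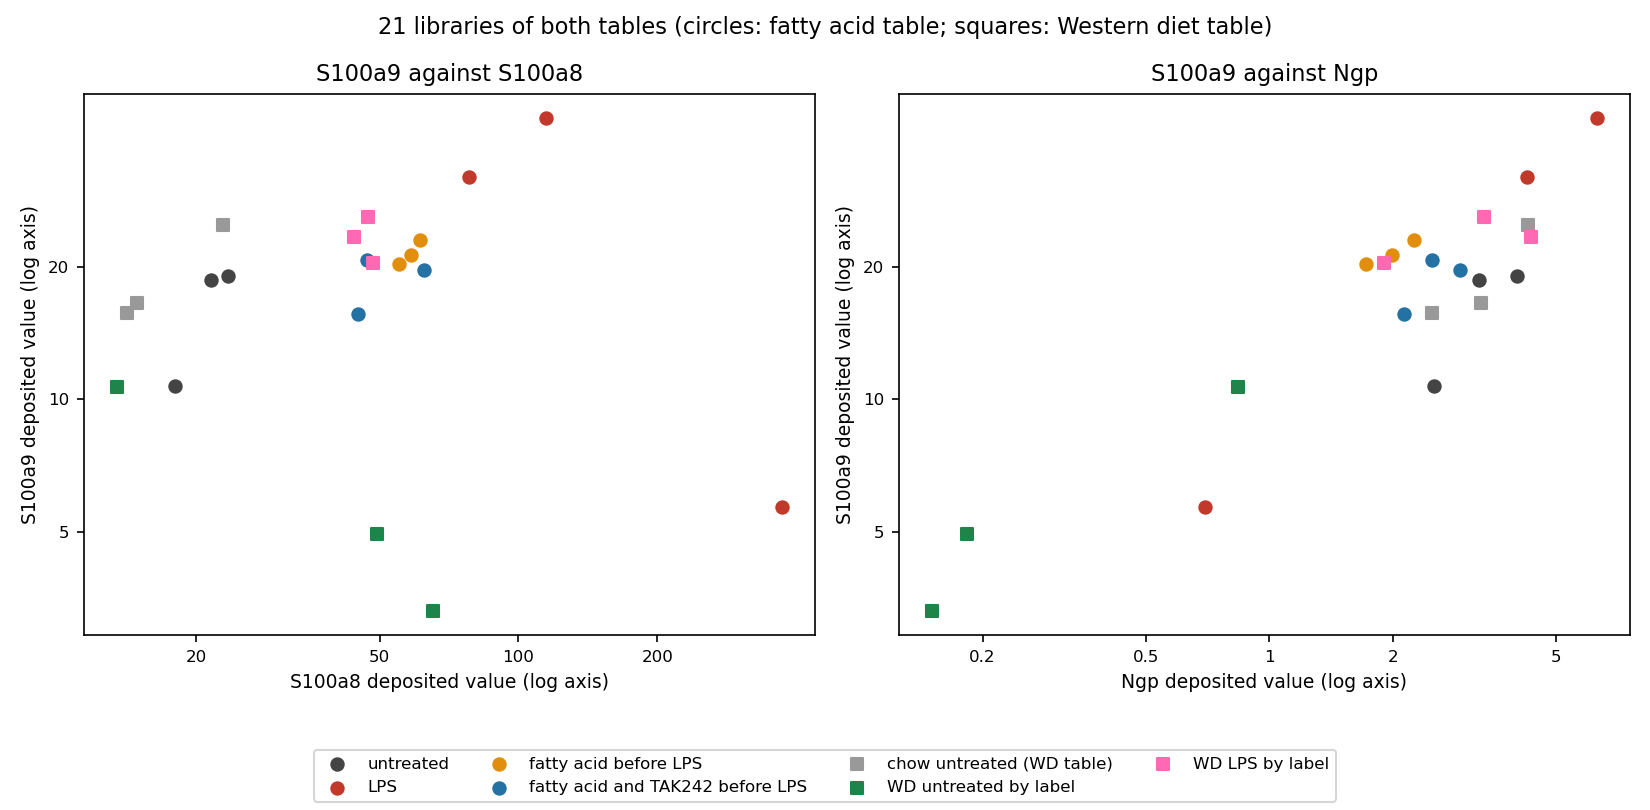
Deposited values of S100a9 against S100a8 (left) and against Ngp (right), both axes logarithmic, 1 point per library of both tables. The tables may not share a normalization. LPS replicate 1 (S100a8 371.9, S100a9 5.69) and the libraries labelled Western diet untreated 1 and 3 lie low for S100a9 and for Ngp.

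The ratio of S100a8 to S100a9 values shows the same libraries. It was 1.16, 1.68 and 1.23 in untreated replicates 1 to 3, and 65.3, 2.63 and 2.44 with LPS. With fatty acid before LPS it was 2.76, 2.71 and 2.67, and with TAK242 added 2.26, 3.17 and 2.87. Outside LPS replicate 1, the 8 stimulated libraries of the fatty acid table thus lay between 2.26 and 3.17, all above the untreated ones.

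S100a4, S100a6, S100a11, S100a8 and S100a10 were lower with fatty acid before LPS than with LPS alone. This was 5 of 8 members, all falling, beside 37.2% of genes called in either direction, 15.3% lower and 21.8% higher. The count was 3 without any 1 of the fatty acid replicates, with no filter, or with only the 6 libraries, and 6 without LPS replicate 1. Calls over all genes moved as well, from 3893 to 3245, 2922 and 2995 without fatty acid replicates 1 to 3. They were 3847 of 25319 with no filter, 2833 with only the 6 libraries and 3358 without LPS replicate 1. The median log2 change was -0.35 over the 8 members and 0.06 over all genes.

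S100a4 was at 28.4, 30.5 and 21.9 with fatty acid, all below the lowest LPS library at 100.4. It was 4.11-fold lower than with LPS alone (log2 change -2.01, SE 0.146, limma adjusted p = 4.52e-05). S100a6 was at 29.9, 30.1 and 38.5, with a log2 change of -1.31 (SE 0.203, limma adjusted p = 0.00123). For this pair the means were 26.9 ± 4.48 and 32.8 ± 4.96 (SD, n = 3).

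S100a11 was at 88.2, 87.8 and 81.3 with fatty acid, below all untreated and all LPS libraries (log2 change from LPS -0.45, SE 0.0973, limma adjusted p = 0.00532). S100a8 was at 58.6, 55.1 and 61.3, a narrow span next to that of LPS alone. Its log2 change was -1.34 (SE 0.431, limma adjusted p = 0.0311), and -0.69 (adjusted p = 0.0185) without LPS replicate 1. The call was lost without fatty acid replicate 1 (adjusted p = 0.0687), 2 (0.0793) or 3 (0.0664). The summed stromal markers fell alongside, from 24.9 to 55.0 with LPS to 9.37 to 12.6 with fatty acid, and their part in the result was not tested.

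S100a10 was at 45.0, 42.3 and 41.8 with fatty acid, just under the lowest LPS library at 48.6. Its log2 change of -0.26 (SE 0.0880, limma adjusted p = 0.0409) did not pass without fatty acid replicate 1 (adjusted p = 0.0536), 2 (0.108) or 3 (0.107) or LPS replicate 3 (-0.17, 0.123), nor with the replicate number as a block (0.0626). S100a9 was at 21.3, 20.3 and 23.0, inside the LPS range, with a log2 change of 0.07 (limma adjusted p = 0.932). Without LPS replicate 1 it was -0.77 (adjusted p = 0.0288). S100a1, at 28.7, 31.6 and 28.1, had a log2 change of -0.24 (limma adjusted p = 0.0796), and S100a13, at 29.1, 29.3 and 28.2, one of -0.14 (adjusted p = 0.271). Neither of these last 2 genes passed the test.

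Adding TAK242 to the fatty acid raised S100a4, S100a10 and S100a11 relative to fatty acid alone. These were 3 of 8 members, beside 4.69% of genes called, 3.01% higher and 1.68% lower, and 36.9% whose groups did not overlap. The count fell to 1, S100a4, without TAK242 replicate 1 or 2 or fatty acid replicate 2 or 3, while calls over all genes fell from 491 to 114, 63, 91 and 66. Summed stromal markers ran from 9.37 to 12.6 with fatty acid and from 20.4 to 24.7 with TAK242 (2 of 5 tested rose), and summed monocyte markers from 32.2 to 33.5 and from 17.9 to 24.1 (2 of 4 tested fell). Their part in the S100 values was not tested. S100a4 was at 86.0, 89.8 and 67.1 with TAK242, 3.01-fold above fatty acid alone (log2 change 1.56, SE 0.146, limma adjusted p = 6.65e-04). Every TAK242 library was above every library with fatty acid alone and below every one with LPS alone.

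S100a10 was at 60.6, 58.4 and 53.5 with TAK242 (log2 change 0.41, SE 0.0880, limma adjusted p = 0.0315). It missed the threshold without TAK242 replicate 1 (adjusted p = 0.101) or 2 (0.124), without fatty acid replicate 1 (0.0506), 2 (0.113) or 3 (0.112), and with the replicate block (0.0521). S100a11 was at 117.6, 127.4 and 116.5 (log2 change 0.49, SE 0.0973, limma adjusted p = 0.0262), and missed it without TAK242 replicate 1 (0.0694) or 2 (0.114) or fatty acid replicate 2 (0.0804) or 3 (0.10). For both genes the groups stood apart.

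The other members overlapped between fatty acid with and without TAK242. S100a6 was at 37.4, 62.3 and 31.9, with replicate 2 above the rest (log2 change 0.36, limma adjusted p = 0.316). S100a8 was at 46.9, 62.5 and 44.9 (log2 change -0.19, limma adjusted p = 0.829), and S100a9 at 20.8, 19.7 and 15.6 (-0.20, 0.862). S100a1 was at 34.6, 34.5 and 30.0 (log2 change 0.16, limma adjusted p = 0.354), and S100a13 at 29.9, 32.1 and 27.8 (0.05, 0.802).

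Against LPS alone, fatty acid with TAK242 left 1 member past the threshold, beside 5.89% of genes called and 1.84% called lower. The groups of 3 members did not overlap, as those of 33.3% of genes did not. Median-ratio scaling moved the all-gene calls from 424 higher and 193 lower to 458 and 528. S100a6 was lower by a log2 change of -0.95 (SE 0.203, limma adjusted p = 0.0319). That call was lost without TAK242 replicate 1 (-0.87, adjusted p = 0.096) or 3 (-0.76, 0.116), without LPS replicate 1 (-1.01, 0.0615) or 2 (-0.91, 0.0862), with no filter (0.0809) and with only the 6 libraries (0.131). S100a4 had a log2 change of -0.45 (limma adjusted p = 0.0792; 0.0305 with the replicate block), and S100a8 one of -1.54 (adjusted p = 0.0582). The S100a8 value was -2.0 (adjusted p = 0.0122) without LPS replicate 3 and -1.61 (adjusted p = 0.0489) after scaling. The remaining 5 members had log2 changes between -0.13 and 0.15 and overlapped between the groups.

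**Figure D3:**
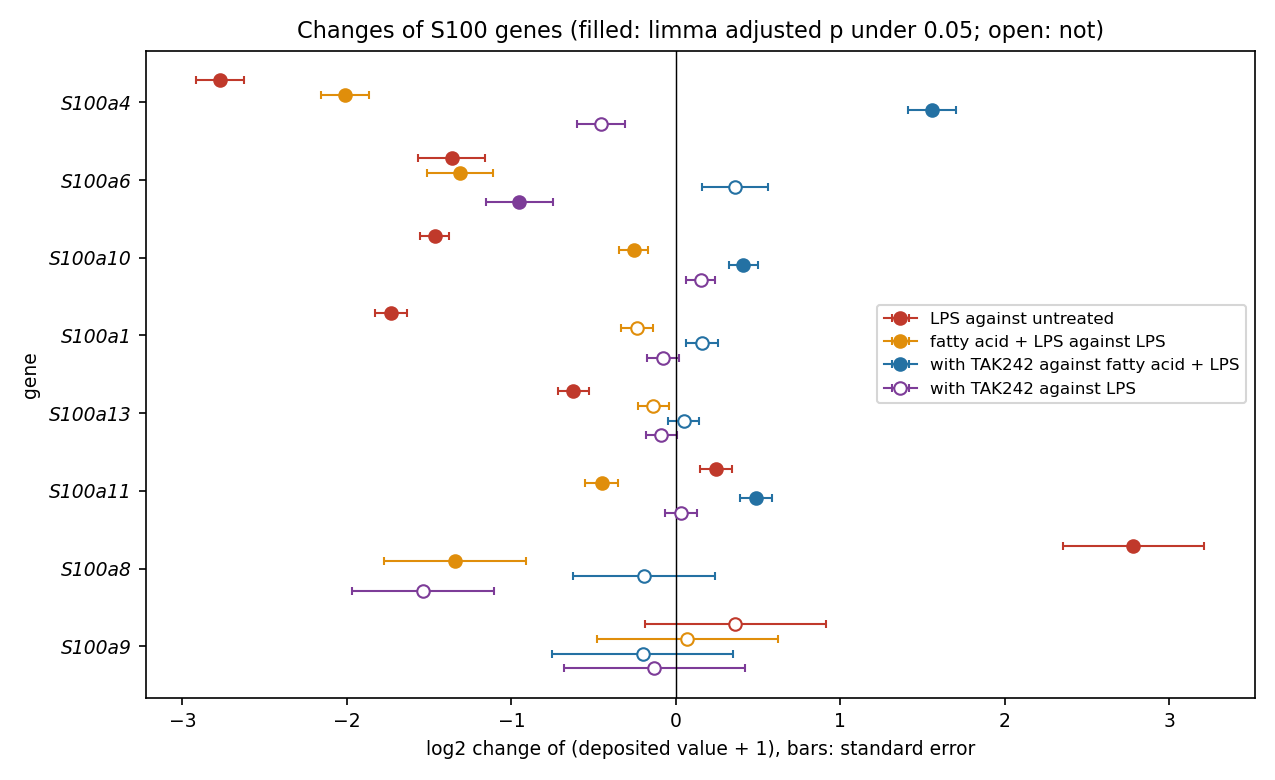
Log2 change of deposited value plus 1 for the 8 members tested in 4 comparisons of the fatty acid table; bars are standard errors and filled points have a limma adjusted p under 0.05. S100a4 falls by 2.77 with LPS and by a further 2.01 with fatty acid, and is 1.56 higher with TAK242 than with fatty acid alone; the error bars of S100a8 and S100a9 are the widest.

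Against untreated cells the whole span of the fatty acid treatments can be read, with the untreated libraries shared with the LPS comparison. S100a4 was 28.3-fold lower with fatty acid and LPS (log2 change -4.78, limma adjusted p = 1.02e-09) and 9.40-fold lower with TAK242 added (-3.22, 1.77e-08). With fatty acid and LPS, 1 member rose and 5 fell, beside 60.1% of genes called (15.2% higher, 44.9% lower). With TAK242 added, 2 rose and 5 fell, beside 58.1% (14.1% higher, 43.9% lower). Scaling turned 1591 higher and 4704 lower genes into 2997 and 2919 in the first comparison, and 1482 and 4600 into 2856 and 2652 in the second, with all-gene medians moved by 0.29 and 0.28.

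S100a8 stayed above untreated in both, by 1.44 with fatty acid (limma adjusted p = 0.0137) and by 1.25 with TAK242 added (adjusted p = 0.0283). The latter call was lost without TAK242 replicate 1 (adjusted p = 0.0533) or 2 (0.0867) or untreated replicate 1 (0.0592) or 2 (0.0814), and with no filter (0.0765). S100a11 differed from untreated by -0.21 with fatty acid (limma adjusted p = 0.089; 0.14 after median-ratio scaling) and by 0.28 with TAK242 added (adjusted p = 0.0294). The latter missed the threshold without TAK242 replicate 1 (0.0534) or 2 (0.0936) or untreated replicate 3 (0.107). S100a9 had log2 changes of 0.43 (limma adjusted p = 0.523) and 0.23 (adjusted p = 0.737).

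The order of the 4 groups differed between members. S100a4 ran from untreated through LPS and TAK242 to fatty acid with no overlap between neighbours. For S100a6 the same order held, but TAK242 and fatty acid overlapped. S100a1 and S100a13 were highest untreated, and the 3 stimulated groups overlapped each with the next. S100a8 was highest with LPS and lowest untreated, with fatty acid and TAK242 overlapping between them. S100a11 was highest with TAK242, which overlapped LPS, then untreated, then fatty acid. S100a10 was highest untreated, then TAK242, which overlapped LPS, then fatty acid. The 4 groups of S100a9 overlapped each with the next.

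In the Western diet table no member passed a test by label. Ccl5, a chemokine gene that LPS induces, was at 2.06, 2.38 and 1.57 in chow replicates 4 to 6 and at 7846, 13.7 and 10973 in the libraries with the label Western diet untreated 1 to 3. In those labelled Western diet with LPS it was 0.463, 10.5 and 6905. Il1b was at 716.9, 2.42 and 598.0 in the libraries labelled untreated and 0.0651, 0.596 and 66.6 in those labelled LPS, and Acod1 at 381.6, 2.54 and 330.5 against 0.490, 0.766 and 197.6. The libraries labelled Western diet untreated 1 and 3 and Western diet LPS 1 and 2 thus went against their labels, and every direction here is by label only.

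S100a4 was at 1164, 824.7 and 969.1 in chow replicates 4 to 6. It was at 9.69, 1020 and 6.56 in the libraries with the label Western diet untreated, and at 423.5, 380.3 and 23.6 in those labelled Western diet with LPS. The 3 libraries with high Ccl5 were the 3 with the lowest S100a4. The same 3 were lowest for S100a6, at 49.9 and 21.9 (labelled untreated 1 and 3) and 15.9 (labelled LPS 3). The other libraries held S100a6 at 257.4, 280.9 and 293.9 (chow), 235.0 (labelled untreated 2), and 114.3 and 149.1 (labelled LPS 1 and 2).

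S100a10 and S100a1 sorted the libraries likewise. S100a10 was at 112.8, 88.1 and 101.8 in chow, 36.0, 133.6 and 35.3 in the libraries labelled untreated, and 102.9, 131.0 and 46.1 in those labelled LPS. S100a1 was at 79.6, 72.7 and 78.2 in chow, 17.8, 78.9 and 14.3 labelled untreated, and 90.8, 117.6 and 33.2 labelled LPS. S100a13 was at 41.5, 38.7 and 41.6 in chow, 32.5, 41.2 and 29.7 labelled untreated, and 54.2, 54.6 and 30.4 labelled LPS. In all 3 genes the libraries with high Ccl5 were again the lowest 3 of 9.

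S100a8 was at 14.9, 22.9 and 14.2 in chow, at 49.4, 13.5 and 65.2 in the libraries with the label Western diet untreated, and at 47.2, 44.0 and 48.3 in those labelled LPS. Unlike the genes above, it was alike in all 3 libraries labelled LPS, whatever their Ccl5. S100a9 was at 16.6, 24.8 and 15.7 in chow, 4.95, 10.7 and 3.32 labelled untreated, and 25.9, 23.3 and 20.4 labelled LPS. S100a9 was lower in all libraries labelled Western diet untreated than in any other of the table. Ngp was low in the same libraries, at 0.183, 0.839 and 0.151, beside 3.33, 4.34 and 1.90 in those labelled LPS, as was Ltf, at 0.191, 0.609 and 0.0903 beside 2.33, 3.38 and 3.00. Camp and Mmp8 were low only in the second of the libraries labelled untreated, and above all chow libraries in the other two. Camp was at 0.712, 1.08 and 0.980 in chow, 1.48, 0.247 and 1.82 labelled untreated, and 0.981, 1.34 and 1.99 labelled LPS. Mmp8 was at 0.607, 0.665 and 0.679 in chow, 4.23, 0.570 and 5.03 labelled untreated, and 21.1, 21.8 and 15.0 labelled LPS. The neutrophil list summed to 12 to 14.5 in chow, 6.39 to 62.2 labelled untreated and 39.2 to 42.8 labelled LPS. Of its 12 markers, 3, 4 and 3 reached 1 in chow, 3, 1 and 3 labelled untreated, and 6, 6 and 5 labelled LPS. The sum of 62.2 was in the library labelled untreated 3, where 7 markers were at 0, so it rested on few genes. Ly6g was at 0 and Elane at 0 in all libraries labelled untreated, and at most 0.126 and 0.197 in those labelled LPS. The monocyte list summed to 37.4 to 52.1 in chow, to 17.29, 84.24 and 17.59 labelled untreated, and to 71.55, 91.33 and 56.9 labelled LPS. The number of its 6 markers at 1 or more went otherwise: 1 in each chow library, 4, 1 and 4 labelled untreated, and 1, 1 and 4 labelled LPS. By label, the 4 tested had a median log2 change of 1.48 for Western diet untreated against chow, beside -0.32 over all genes. The sums thus do not stand for the whole list. Stromal markers summed to 0.220 to 1.20 in chow, 4.15 to 7.97 labelled untreated and 2.03 to 3.40 labelled LPS. The part of these cell types in the S100a8 and S100a9 values was not tested.

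S100a11 was at 53.6, 41.1 and 46.4 in chow, 59.4, 50.0 and 67.7 labelled untreated and 63.9, 67.4 and 64.2 labelled LPS. The ratio of S100a8 to S100a9 was 0.902, 0.921 and 0.904 in chow, 9.98, 1.26 and 19.7 labelled untreated and 1.82, 1.89 and 2.37 labelled LPS. Chow untreated levels also differed between the tables, and not all in the same direction. S100a11 averaged 47.0 here and 99.2 in the fatty acid table, S100a4 985.9 and 761.4, and Mmp8 0.650 and 62.5. The neutrophil list summed to 12 to 14.5 here and 77.1 to 82.6 there, and stromal markers to 0.220 to 1.20 and 7.86 to 15.9. Mmp8 is on the neutrophil list and made up most of its sum there. Other genes of that list differed little: Ngp averaged 3.34 here and 3.25 there, Ltf 3.04 and 3.66, and Camp 0.925 and 0.694. Nothing states a common normalization of both, and why they differed was not tested. Apart from LPS replicate 1 of the fatty acid table, the libraries labelled Western diet untreated 1 and 3 had the highest ratios of all 21.

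By label, Western diet untreated against chow gave 0 of 8 members, beside 0.232% of 10331 genes, and 2 at an unadjusted p under 0.05, beside 27.3%; all-gene calls were 7 higher and 17 lower, or 9 and 14 after scaling, which moved the all-gene median by 0.33. Log2 changes ran from -4.49 for S100a4 (SE 1.86, limma adjusted p = 0.183) to 1.02 for S100a8 (SE 0.510, adjusted p = 0.201). S100a6 and S100a9 had groups that did not overlap, as 29.2% of all genes had. Without the library labelled Western diet untreated 2, the one of the 3 with low Ccl5, 7 members passed, S100a4 at -6.76 (adjusted p = 0.00341) among them, beside 5838 of the 10331 genes (1248 higher, 4590 lower). Without the 4 libraries against their labels, a lone Western diet library was set against the 3 of chow, so only the size of a difference can be read. The log2 difference of S100a4 was then 0.06.

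Western diet with LPS against Western diet untreated, by label, also gave 0 of 8, beside 0.958% of genes, and 1 at an unadjusted p under 0.05, beside 17.2%. S100a9 came nearest, at a log2 change of 1.85 (SE 0.359, limma adjusted p = 0.0612). It passed without the library labelled Western diet LPS 3 (1.93, adjusted p = 0.0409) and after scaling (1.65, 0.0275), which moved the all-gene median by -0.18. Without the library labelled Western diet untreated 2, 4 members passed: S100a9 (2.25), S100a4 (4.14), S100a1 (2.08) and S100a10 (1.24), all higher, beside 3082 higher and 1004 lower genes of 10331. Without the 4 libraries against their labels, 1 library was left on each side, so only the size of a difference can be read. The log2 difference was 1.77 for S100a8. For S100a4 (-5.38), S100a6 (-3.81), S100a10 (-1.52) and S100a1 (-1.22) it was the reverse of the direction by label. The 4 libraries were left out for their LPS-responsive genes, and these last genes sorted the libraries as Ccl5 did. The direction thus followed from the choice of libraries and is no test of LPS.

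**Figure D4:**
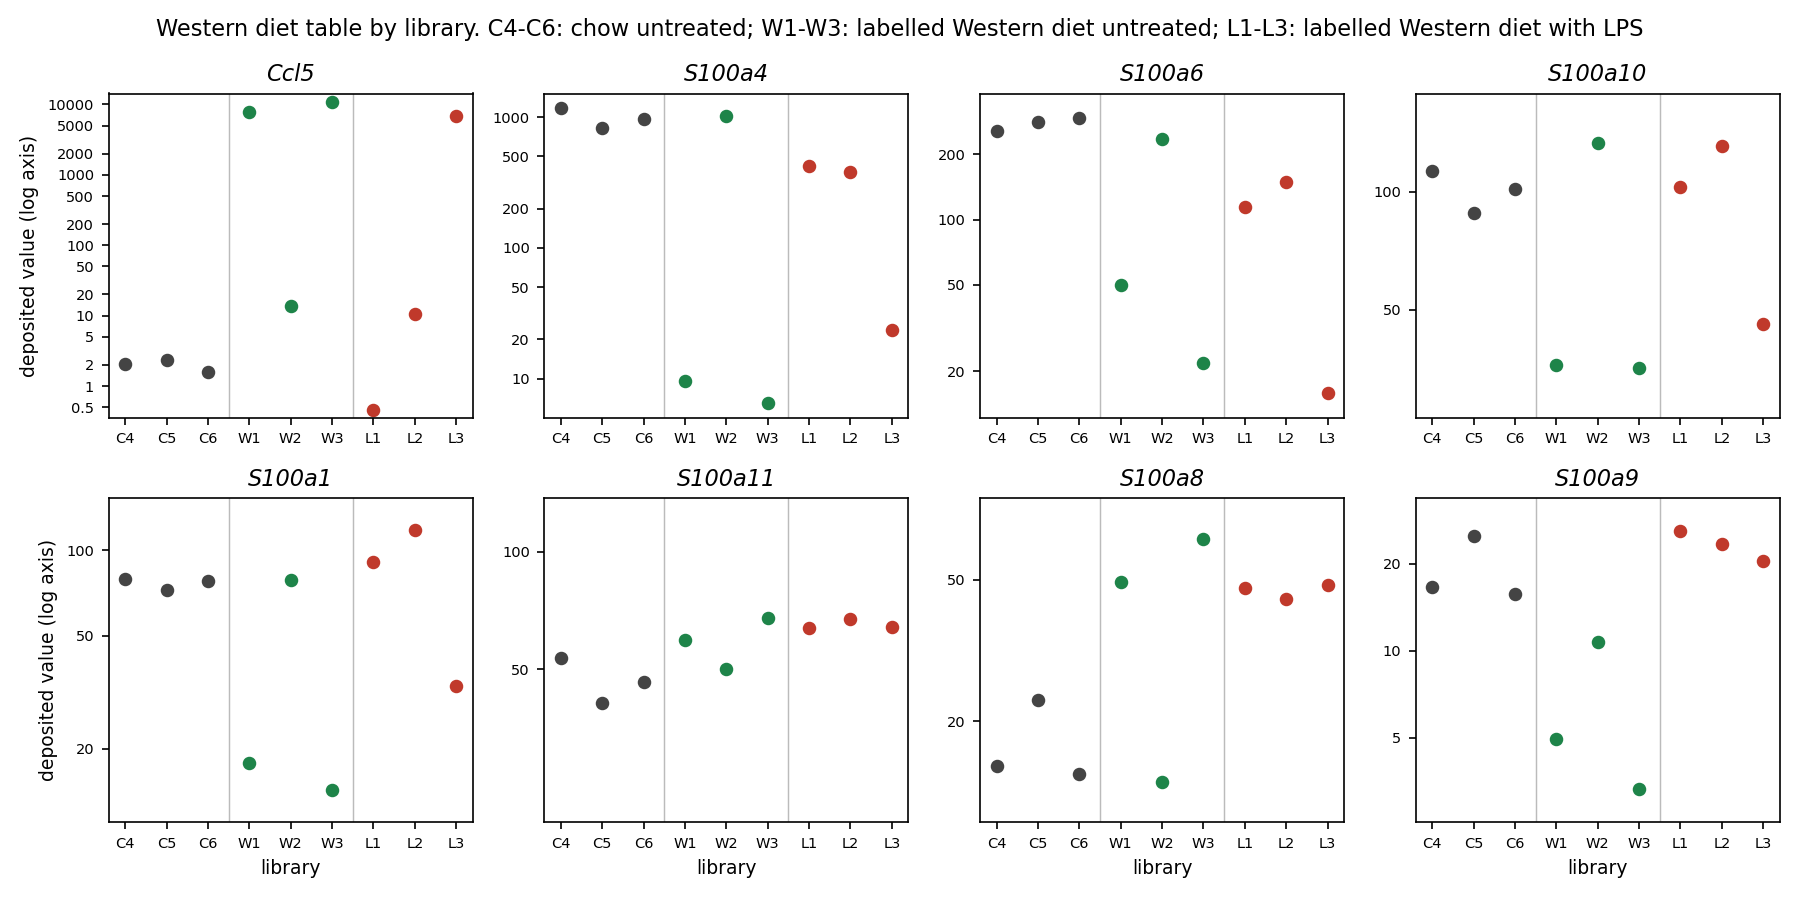
Deposited values (log axis) of Ccl5 and 7 members in each of the 9 libraries of the Western diet table: chow untreated replicates 4 to 6 (C4-C6), labelled Western diet untreated (W1-W3) and labelled Western diet with LPS (L1-L3). W1, W3 and L3, with Ccl5 of 6905 or more, are the lowest for S100a4, S100a6, S100a10 and S100a1, while S100a8 is at 44.0 to 48.3 in L1 to L3.

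Among 12 listed protein partners of S100 proteins, 11 were tested. For this and the lists below, the shares of all genes called higher and lower were 13.8% and 47.9% with LPS. They were 21.8% and 15.3% with fatty acid before LPS, and 3.01% and 1.68% with TAK242 added to it. Of the partners, 1 rose and 6 fell with LPS, with a median log2 change of -0.41 beside -0.31 over all genes. Tpt1, which encodes the growth-related protein TCTP, fell by 1.32 on the log2 scale (limma adjusted p = 3.42e-07), Anxa1, the partner of S100A11, by 1.07 (1.43e-06), and Ahnak, the scaffold bound by S100A10, by 1.27 (1.52e-05). Fatty acid before LPS then raised Anxa6 (log2 change 1.09, limma adjusted p = 0.00203) and lowered Anxa5 (-0.75, 0.00212), Nucb1 (-1.11, 0.00954) and Myh9, the S100A4-binding myosin chain (-0.70, 0.0209). With TAK242 added to the fatty acid, Nucb1 (1.34, 0.0268) and Anxa11 (0.71, 0.0439) rose and no partner fell.

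The ratio of S100a10 to Anxa2, whose proteins form a complex, moved with S100a10. It was 0.475, 0.412 and 0.526 untreated, 0.225, 0.210 and 0.234 with LPS, 0.172, 0.211 and 0.162 with fatty acid and 0.242, 0.248 and 0.241 with TAK242 added. All untreated libraries were above all stimulated ones. In the Western diet table it was 0.406, 0.379 and 0.373 in chow, 0.103, 0.413 and 0.119 in the libraries labelled untreated and 0.441, 0.448 and 0.223 in those labelled LPS.

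Of 10 genes for proteins reported to bind S100 proteins at the cell surface, 9 were tested. With LPS 3 rose and 3 fell, beside 13.8% and 47.9% of all genes, with a median of -0.29. Cd14, the LPS co-receptor, rose by 3.55 (limma adjusted p = 2.40e-06), Cd69 by 3.25 (6.37e-09) and Ly96, the TLR4 partner MD-2, by 0.58 (1.59e-04). Tlr4 itself fell by 0.99 on the log2 scale (1.09e-06). Fatty acid before LPS raised 2, Tlr4 (0.48, limma adjusted p = 0.00148) among them, and lowered 5, with Cd14 at -2.37 (5.98e-04) and Emb (embigin) at -0.70 (0.0015). TAK242 with the fatty acid raised Emb (0.75, 0.00865), and no other passed. Ager, the RAGE gene, was below the filter, at 0.418 or less in every library of the fatty acid table.

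Of 12 regulators tied to S100a8 and S100a9 transcription, 7 were tested. With LPS 5 rose and 0 fell, beside 13.8% and 47.9% of all genes, with a median of 0.70. Il10, an anti-inflammatory cytokine gene, rose by 2.88 (limma adjusted p = 8.63e-08), Stat3 by 0.96 (1.02e-04), Spi1, the PU.1 gene, by 0.70 (2.57e-04) and Nfkb1 by 0.81 (4.99e-04). Fatty acid before LPS lowered Nfkb1 (-0.59, limma adjusted p = 0.00867) and Hif1a (-0.81, 0.0283), and TAK242 with it lowered Il10 (-0.74, 0.0339). Cebpb was below the filter, at 0.140, 0.0714 and 0.302 in the untreated libraries and 0.755 to 0.822 with LPS.

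Calcium-binding EF-hand genes outside the family (14 listed, all tested) gave 2 that rose and 4 that fell with LPS. This was beside 13.8% and 47.9% of all genes, with a median of 0.02. Calm2, 1 of the calmodulin genes, fell by 0.96 on the log2 scale (limma adjusted p = 5.88e-07). With fatty acid before LPS, 1 rose and 4 fell: Aif1, the macrophage protein IBA1, rose by 2.0 (7.52e-04), and Actn1, an alpha-actinin gene, was at -1.07 (0.00381). With TAK242 added, Plcg2 (0.39, limma adjusted p = 0.0339) and Myl12a (0.80, 0.0415) rose and 0 fell. Of 8 further S100-related genes, S100pbp alone passed the filter, and it was not called in these 3 comparisons.

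S100a3, known from the hair cuticle, was the member below the filter. It was at 0.00225 in untreated replicate 3 and 0.00916 in LPS replicate 3 and at 0 in the other 10 libraries of the fatty acid table. In the Western diet table its highest value was 0.0130, in chow replicate 5. It got no test. The gene model Gm42674 overlaps S100a3 and S100a4 on their strand and shares 302 of its 446 exonic bases with S100a4 and 144 with S100a3. The ratio of its value to that of S100a4 stayed between 1.07 and 1.10 in all 21 libraries. How reads were divided between S100a4 and this model is uncertain.

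Genes whose log2 values followed a member most closely over the 12 libraries of the fatty acid table were found by the root-mean-square difference of centred log2 values among 3730 genes with a mean of at least 10. Libraries share treatment and scaling, so the likeness is a description. S100a4 was most like Cd9, a tetraspanin gene (0.36), followed by Rrm2 (0.46) and Cks1b (0.57), genes of DNA synthesis and the cell cycle. S100a6 was nearest to Anxa3 (0.30), S100a10 to Dtnbp1 (0.11), S100a1 to Anp32e (0.11), S100a11 to Pgk1, a glycolytic enzyme gene (0.088), and S100a13 to Rpl30, a ribosomal protein gene (0.052). A member that varies little has small distances, so these are not compared between members. The SD of a member's own log2 values was 1.73 for S100a4, 1.06 for S100a6, 0.67 for S100a10 and 0.80 for S100a1. It was 0.22 for S100a11, 0.32 for S100a13 and 0.65 for S100a9. S100a8 was nearest to Pstpip2 (0.39) and Tnf (0.41), where the SD of the log2 values of S100a8 itself was 1.10. S100a9 was nearest to Chil3, the gene of the macrophage and myeloid protein Ym1 (0.23), and S100a8 was not among its closest 3.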

How the data were processed

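RNA-seq libraries (21) came as 2 tables of deposited values, 1 score per gene and library. The aligner named in the submitters' processing notes is HISAT2 2.0.5, beside Trim Galore 0.4.1 and CASAVA 1.8.2; they name mm10 and mm9, and how the authors counted and normalized is not given in the sources used here. Gene coordinates equalled GRCm38 GENCODE M21 in 46773 of 50645 and 46772 of 50644 genes. Entries with displaced columns were left out (36 and 35). The authors' scores have no named unit and are not whole numbers, so limma 3.58.1 (R 4.3.3; trended prior variance) was run on log2(score + 1) within each table, over genes at 1 or more in at least 3 libraries (10476 and 10331). Every adjusted p is limma's, by the Benjamini-Hochberg method over those genes, called under 0.05. Log2 changes are on the log2(score + 1) scale. The fit was tested on simulated data.

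The members and lists were chosen with earlier results of these data known. All members are named; from each list the 2 to 4 genes with the smallest adjusted p are, and the 3 genes most like a member were sought; Ager, Cebpb, Ngp, Ltf, Camp, Mmp8 and the LPS-responsive genes were added with their values known. Alternatives were no filter, a minimum of 5, a pseudocount of 0.1, only the compared libraries, median-ratio scaling, leaving out libraries, and the replicate number as a block. Python 3.11.15, pandas 2.3.3 and matplotlib 3.10.9 were used.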

Additional observations from a re-analysis of the deposited data

How the results depend on the processing

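Over 776 values of single members under an alternative, 686 kept direction and side of the threshold. In the same direction, 44 lost the call and 18 gained it. The other 28 reversed direction and were counted so whether called or not. The values include settings that left 1 library in a group. Counts of members called moved as follows. Fatty acid before LPS against LPS gave 5, and 3 with no filter or only the 6 libraries, with 3 to 6 when 1 library was left out. Its calls over all genes went from 3893 to 3847 (no filter), 2833 (only the 6 libraries) and 2922 to 4089 (1 library left out). TAK242 with fatty acid against fatty acid gave 3, and 1 to 3 with 1 library left out, where all-gene calls went from 491 to between 63 and 305. TAK242 with fatty acid against LPS gave 1, 0 with no filter or only the 6 libraries, 2 after median-ratio scaling, and 0 to 2 with 1 library left out. Here all-gene calls went from 617 to 88 (no filter), 2 (only the 6 libraries), 986 (scaling) and 1 to 1784 (1 library left out). Western diet against chow by label gave 0, and up to 7 with 1 library left out, where all-gene calls went from 24 to between 8 and 5838. LPS in Western diet libraries by label gave 0, 1 after scaling, and 0 to 4 with 1 library left out. All-gene calls there were 99, 200 after scaling, and 18 to 4086 with 1 library left out. Leaving out the 4 libraries against their labels left 1 library in a group, so no count is given for it.

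Reversed log2 changes, none of them called in the first place, were as follows. Leaving out 1 library, S100a9 ran from -0.16 to 1.20 with LPS against untreated, from -0.77 to 0.60 with fatty acid against LPS, from -0.97 to 0.40 with TAK242 against LPS and from -0.02 to 0.37 with TAK242 against untreated. S100a13 ran from 0.00 to 0.10 with TAK242 against fatty acid, and S100a11 from -0.05 to 0.13 with TAK242 against LPS, where it was at -0.04 after scaling. Against untreated, S100a11 with fatty acid was at 0.14 after scaling. For Western diet against chow, S100a13 was at 0.17 after scaling; without the 4 libraries S100a8 was at -0.31, S100a10 at 0.41, S100a1 at 0.04, S100a13 at 0.02 and S100a4 at 0.06. For LPS in Western diet libraries, scaling put S100a11 at -0.09 and S100a6 at -0.21. With 1 library left out, S100a6 ran from -0.72 to 1.02 and S100a8 from -0.28 to 0.81. Without the 4 libraries, S100a10 was at -1.52, S100a1 at -1.22, S100a13 at -0.43, S100a4 at -5.38 and S100a6 at -3.81. The cause was not tested.

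Replicate numbers name libraries and need not pair them: correlations of the deviations of same-numbered libraries ran from -0.081 to 0.20 in the fatty acid table and were -0.666, 0.681 and 0.761 for Western diet replicates 1 to 3. With the replicate number as a block, the members called were 7 for LPS, 4 for fatty acid, 2 for TAK242 against fatty acid, 2 for TAK242 against LPS, 6 and 7 against untreated, and 0 for LPS in Western diet libraries. Calls over all genes, in the same order, were 6364, 3716, 373, 579, 6201 and 6012 of 10476, and 0 of 10331. The last count of 0 thus held for every gene. No paired analysis was possible for Western diet against chow because those groups share no numbers. Depth is unknown, so no counting error was given.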
